A study of Mus musculus with 31 samples.

Results

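Peripheral axons of Nav1.8-positive sensory neurons were compared with the somas of that neuron class by sequencing the RNA that came down with tagged ribosomes. The comparison was defined by the labels alone: the batch 2 libraries with Nav1.8-Cre and the L10a-eGFP-fl/fl allele from sciatic nerve (4 libraries, replicates 1 to 4, here called nerve Cre libraries) against those from lumbar dorsal root ganglia (4 libraries, replicates 5 to 8, soma Cre libraries). These are 8 of the 31 libraries of the series. Another 7 batch 2 libraries came from mice with the L10a-eGFP-fl/fl allele and no Cre, 3 from sciatic nerve (replicates 1, 2 and 4, nerve controls) and 4 from the ganglia (replicates 5 to 8, called soma controls although nothing was tagged). All 15 libraries share the floxed L10a-eGFP allele, and the labels give no age, sex, strain background, treatment or number of animals per library. They call the libraries biological replicates but do not say whether each came from other animals, so p-values measure the spread between these libraries, which may be partly technical.

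In translating ribosome affinity purification (TRAP) a recombinase switches on a GFP-tagged ribosomal protein in 1 cell class, and an antibody to GFP then pulls down the ribosomes of those cells with the mRNAs they are reading. Here the Cre is driven from the gene of the sodium channel Nav1.8 (Scn10a), which is active mainly in nociceptors, the sensory neurons that report pain. Their cell bodies sit in the ganglia, wrapped by satellite glia, and their peripheral axons run through the sciatic nerve among Schwann cells, fibroblasts that lay down the collagen of the nerve, perineurial cells and blood vessels, next to muscle. Axons lie far from the nucleus and are known to translate some mRNAs locally, among them mRNAs of ribosomal and mitochondrial proteins. A pulldown also carries RNA of untagged cells, and the libraries without Cre show the make-up of that RNA in each tissue, not its amount. Per the labels the yields were in picograms for axons and under a nanogram for somas, and a SMART-Seq kit for such inputs was used.

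Library totals ran from 4.10 to 15.1 M counts (M, counts in units of 1e+06) in the nerve Cre libraries and from 15.6 to 19.6 M in the soma Cre libraries. They ran from 4.54 to 6.49 M in the nerve controls and from 3.60 to 18.1 M in the soma controls. Soma control 5 stood apart from the other soma controls in depth (18.1 M against 3.60 to 4.52 M). It also did in its share of counts from genes higher in nerve Cre libraries (7.11% against 13.4% to 17.4%). That share lay closer to those of the soma Cre libraries (4.94% to 6.08%). Its depth lay within their range, as did its share from genes lower in nerve (40.9% against 40.0% to 45.4%, other soma controls 24.1% to 30.3%). The reason was not tested. Ratios of nerve to ganglion controls in summed CPM, and the share of higher genes positive in controls, are also given without soma control 5. Most other values from soma controls include it. Levels are given as CPM, the counts of a gene per 1e+06 counts of its library. A level is thus a share of its library, and amounts of RNA were not compared between libraries. A library with 0 counts of a gene allows a level of up to 3 counts, which is 0.153 to 0.833 CPM depending on the library. Replicates differed by more than sampling noise, with a smallest chi-square per degree of freedom of 28.6 over 21 pairs. Scn10a, the driver gene (ENSMUSG00000034533, chromosome 9, 119608456 to 119719322, GRCm38), was at 42.1, 304, 116 and 156 CPM in the nerve Cre libraries, 335, 374, 313 and 432 in the soma Cre libraries, 127, 38.1 and 0 in the nerve controls and 303, 295, 598 and 286 in the soma controls. It was thus present in each nerve Cre library and in 2 of the 3 nerve controls, with overlapping ranges. Rpl10a, the gene of the tagged protein, was at 168, 228, 274 and 156 CPM in nerve and 117, 146, 141 and 111 in soma Cre libraries (log2 fold change 0.50, SE 0.29, adjusted p 0.213), and its counts cannot tell tagged from endogenous transcript.

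Of 15467 genes tested, 4818 (31.2%) had a Benjamini-Hochberg adjusted p under 0.05 in edgeR's quasi-likelihood test, which is called here a difference between nerve and soma. Of these, 2889 (18.7% of genes tested) were higher in nerve Cre libraries and 1929 (12.5%) lower. These shares are the background for the list counts below. Fold changes are log2 values of nerve over soma, with library sizes scaled by TMM; the median over all genes was -0.03, and it was 0.17 with library size alone and -0.14 with RLE scaling. Among higher genes the median was 2.51, and 2752 of them reached 1. Among lower genes it was -1.54, and 1701 of them reached -1. The 4 libraries of nerve did not overlap the 4 of soma in 5683 genes (36.7%). The higher genes included the glial, connective tissue, vessel, muscle and mitochondria-encoded genes, with part of the ribosomal protein genes, and the lower genes included neuronal, synaptic, cytoskeletal and proteasome genes, as described list by list below. In bulk libraries fewer cells of a type and less RNA per cell cannot be told apart. A fit over all 4 batch 2 groups, here the 4-group fit, has 1 estimate of the spread for Cre and control libraries. In it 1404 of 15717 genes were called, 950 higher and 454 lower. With 1 library left out, higher calls over all genes ran from 2057 to 3291 and lower calls from 1163 to 2966. List counts from those fits are to be read against these totals.

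**Figure D1:**
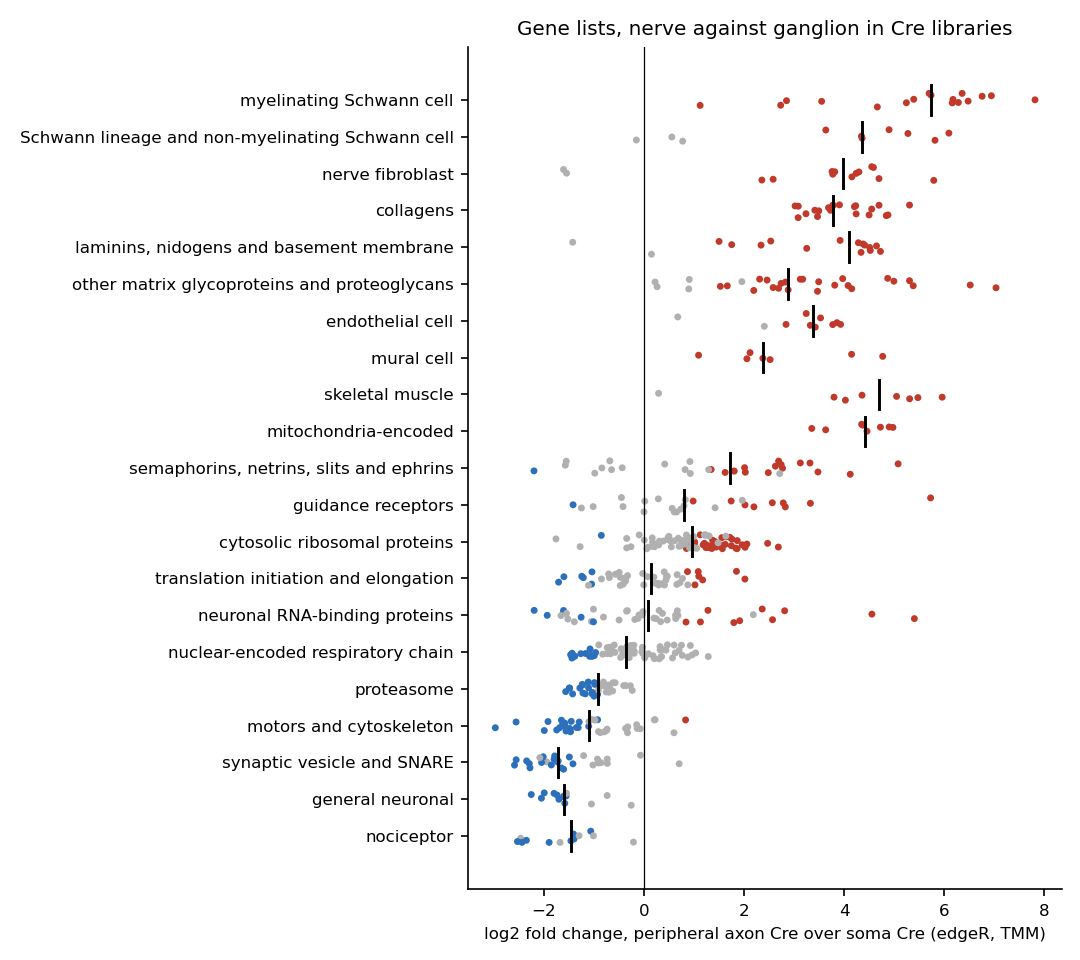
Each point is a gene of the list named on the left, placed by its log2 fold change of nerve over soma in Cre libraries (horizontal axis). Red points were called higher, blue points lower and grey points neither, and the black bar is the median of the list. The myelinating Schwann cell list has its median at 5.74 and the synaptic vesicle and SNARE list at -1.72.

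Among the markers by which the higher genes had been labelled in earlier work on these data, Thbs4, Reln, Lama2 and Sema3b, each was far above soma in each nerve Cre library. Thbs4 (thrombospondin 4, a secreted matrix protein; ENSMUSG00000021702, chromosome 13, 92751590 to 92794818) was at 153, 87.7, 86.1 and 158 CPM in nerve and 1.31, 0.964, 0.458 and 0.458 CPM in soma (log2 fold change 7.04, SE 0.43, adjusted p 1.95e-05). Reln (reelin, a secreted matrix glycoprotein; ENSMUSG00000042453, chromosome 5, 21884454 to 22344702) was at 66.4, 60.6, 99.8 and 96.4 CPM in nerve and 0.812, 0.900, 0.458 and 0.915 CPM in soma (log2 fold change 6.52, SE 0.41, adjusted p 1.95e-05). For neither gene did the nerve and soma libraries come near each other. Lama2 (laminin alpha 2, a chain of the laminin in the Schwann cell basal lamina; ENSMUSG00000019899, chromosome 10, 26980036 to 27619758) was at 149, 117, 112 and 158 CPM in nerve and 6.68, 7.45, 3.87 and 4.41 CPM in soma (log2 fold change 4.38, SE 0.30, adjusted p 1.95e-05). Sema3b (semaphorin 3B, a secreted axon guidance cue; ENSMUSG00000057969, chromosome 9, 107597674 to 107609229) was at 202, 146, 178 and 158 CPM in nerve and 7.93, 11.6, 7.13 and 7.38 CPM in soma (log2 fold change 4.13, SE 0.28, adjusted p 1.95e-05).

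The same genes were high in CPM in nerve without any tagged ribosome. Thbs4 was at 136, 456 and 712 CPM in the nerve controls, so that 2 of the 3 controls lay above each nerve Cre library, and at 5.64, 8.88, 0 and 5.76 CPM in the soma controls. Reln was at 42.7, 134 and 179 CPM in nerve controls and 2.16, 21.2, 33.9 and 0.886 CPM in soma controls. Lama2 was at 201, 245 and 348 CPM in nerve controls, each above each nerve Cre library, and at 9.84, 37.2, 44.4 and 67.3 CPM in soma controls. Sema3b overlapped between nerve Cre libraries and nerve controls, with 138, 125 and 248 CPM in the controls of nerve and 10.7, 31.8, 5.28 and 21.5 CPM in those of ganglion. Between nerve and soma controls the log2 fold changes were 6.28 for Thbs4, 2.97 for Reln, 2.64 for Lama2 and 3.17 for Sema3b. None of these passed an adjusted p of 0.05 in the 7 control libraries (edgeR adjusted p 0.0758, 0.362, 0.164 and 0.152). In summed CPM the 4 markers were 32.3 times as high in nerve as in soma Cre libraries and 12.9 times as high in nerve as in soma controls (10.7 times without soma control 5).

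**Figure D2:**
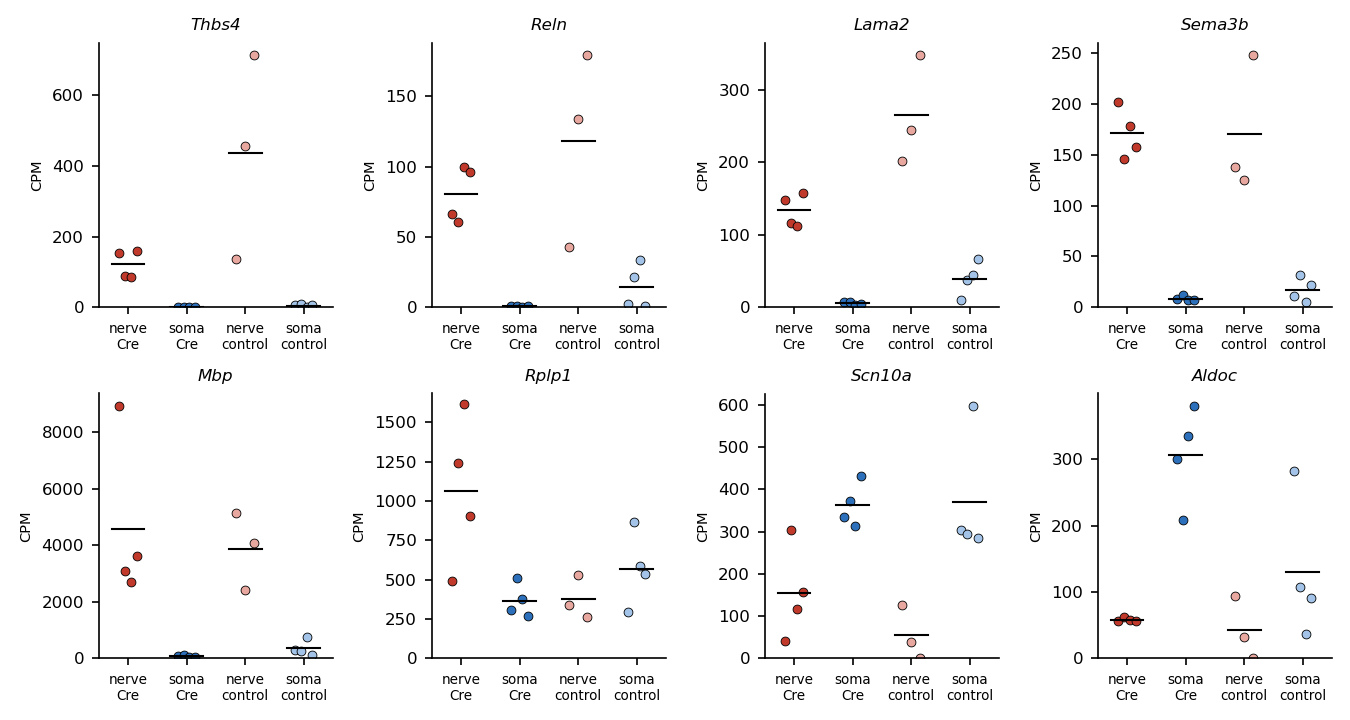
Each panel plots the CPM of 1 gene (linear axis from 0) in nerve Cre, soma Cre, nerve control and soma control libraries, 1 point per library with a bar at the group mean. Thbs4, Reln, Lama2, Sema3b and Mbp are high in both nerve groups and low in both ganglion groups, whereas Rplp1 is highest in nerve Cre libraries, and Scn10a and Aldoc are highest in ganglion.

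Genes of the myelin sheath made the group with the largest median change of the lists examined. In the myelinating Schwann cell list, 17 of 17 tested genes were higher in nerve, with a median log2 fold change of 5.74 (all genes -0.03), and 16 of the 17 had no overlap between nerve and soma libraries (36.7% of all genes). Mbp (myelin basic protein) was at 8918, 3086, 2698 and 3605 CPM in nerve and 97.5, 112, 42.1 and 48.9 CPM in soma (log2 fold change 5.70, SE 0.54, adjusted p 3.80e-05). The peripheral myelin protein Pmp22 (ENSMUSG00000018217, chromosome 11, 63128982 to 63159547) was at 7101, 1563, 2079 and 1984 CPM in nerve and 421, 246, 367 and 559.6 CPM in soma (log2 fold change 2.74, SE 0.50, adjusted p 0.00197). In both genes the lowest nerve library was above the highest soma library. Per kilobase (kb) of annotated exon the mean nerve Cre levels ran in the order Pmp22 (1352 CPM per kb), Mbp (540.4) and Cnp (273), Cnp being a myelin enzyme. Egr2, the transcription factor that drives myelination, had a log2 fold change of 6.48, Prx (periaxin) one of 6.36 and Dhh (desert hedgehog) the smallest of the list, 1.13.

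In the list of Schwann lineage and non-myelinating Schwann cell genes, 7 of 10 tested were higher and none lower (median 4.36). Sox10, the transcription factor of the Schwann lineage, was at 308, 171, 127 and 215 CPM in nerve and 14.3, 11.4, 4.68 and 4.41 CPM in soma (log2 fold change 4.36, SE 0.43, adjusted p 4.72e-05). Erbb3, the neuregulin receptor of Schwann cells, was at 260.0, 92.4, 47.8 and 160.2 CPM in nerve and 1.25, 3.98, 1.37 and 1.66 CPM in soma (log2 fold change 5.82, SE 0.58, adjusted p 5.34e-05). S100b, which satellite glia also express, did not pass the test (log2 fold change 0.78, adjusted p 0.0614), nor did Scn7a (-0.15) and Ngfr (0.56). Lgi4, a secreted Schwann cell protein, shares 44.9% of its exon length with Fxyd3 on the opposite strand, so its value (5.28) and that of Fxyd3 (5.61) may hold each other's reads. Of the glia list of the ganglion, 3 of 8 satellite glia genes were higher, and all 3 are also expressed by Schwann or other glial cells: Ednrb (6.06), Kcnj10 (5.81) and Slc1a3 (3.01). The call of Slc1a3 was lost without soma Cre library 7 and without soma Cre library 8. The satellite glia list summed to 913 CPM in nerve Cre (599 to 1256), 271 in soma Cre (177 to 344), 1525 in nerve control and 1368 in soma control libraries. Fabp7, a defining satellite glia gene, did not pass the test and was at 20.4, 14.0, 40.3 and 9.36 CPM in nerve Cre, 24.5, 26.4, 24.9 and 17.5 in soma Cre, 15.4, 0 and 0 in nerve control and 39.8, 249, 638 and 612 in soma control libraries. The call of Slc1a3 was lost in the 4-group fit.

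Summed over the list, myelin genes overlapped in level between nerve with and without tagged ribosomes. The summed level of the myelinating Schwann cell list was 18999 CPM in nerve Cre libraries (lowest 11789, highest 32785) and 15626 CPM in nerve controls (10194 to 19083). It was 725 CPM in soma Cre libraries (585 to 856) and 1673 CPM in soma controls (886 to 2728). Nerve thus exceeded ganglion 26.2-fold with the tag and 9.34-fold without it (9.03-fold without soma control 5). The nerve Cre mean was 1.22 times the nerve control mean, while the medians went the other way (15712 CPM in nerve Cre libraries, 17601 in nerve controls). In the control comparison 17 of 17 genes had a positive log2 fold change (median 3.33; 46.7% of all genes were positive) and 16 of them an unadjusted p under 0.05, where 675 of all 13715 genes (4.92%) had such a p and a positive sign. Between nerve Cre libraries and nerve controls 10 of the 17 genes had a positive and 7 a negative log2 fold change (53.1% of all genes positive), with none called (median 0.13). Mbp was at 5125, 2412 and 4086 CPM in nerve controls and 309, 252, 743 and 132 CPM in soma controls, so that for this gene nerve Cre libraries and nerve controls overlapped and each nerve control was above each soma control. Its nerve over ganglion ratio differed between Cre and control libraries by 2.20 on the log2 scale, unadjusted p 0.00839, which did not pass the adjustment (edgeR adjusted p 0.338).

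Collagens and the other genes of connective tissue were higher in nerve for the most part. All 21 tested collagen genes were higher in nerve (median log2 fold change 3.79), as were 12 of 14 nerve fibroblast genes (3.99), 14 of 16 genes of laminins, nidogens and the basement membrane (4.11) and 24 of 29 other matrix genes (2.89). None of the 4 lists had a member called lower, and genes on several of them are counted in each. Col1a1, a chain of fibrillar collagen I, was at 1043, 1860.2, 1037 and 2232 CPM in nerve and 47.8, 107, 21.9 and 32.7 CPM in soma Cre libraries (log2 fold change 4.70, SE 0.55, adjusted p 0.000125). Col3a1, the chain of collagen III, was at 1316, 1193, 1059 and 1666 CPM in nerve and 60.4, 91.5, 41.9 and 47.0 CPM in soma (log2 fold change 4.24, SE 0.34, adjusted p 2.22e-05). Nerve and soma libraries did not overlap in either gene. Pdgfra, the growth factor receptor that marks fibroblasts, was at 96.3, 27.1, 21.7 and 60.5 CPM in nerve and 3.62, 2.96, 1.32 and 1.83 CPM in soma (log2 fold change 4.16, SE 0.53, adjusted p 0.000216).

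Sparc, a secreted collagen-binding protein, was at 5426, 2728, 2249.7 and 5134 CPM in nerve and 198, 277, 152 and 117 CPM in soma (log2 fold change 4.16, SE 0.43, adjusted p 6.17e-05). Lamb1, the beta 1 chain of laminin, was at 712, 383, 434 and 828 CPM in nerve and 27.8, 21.5, 13.4 and 14.4 CPM in soma (log2 fold change 4.73, SE 0.35, adjusted p 2.12e-05). Itga6, an integrin subunit that binds laminin, was at 938, 287, 326 and 707 CPM in nerve and 22.9, 21.7, 14.3 and 17.3 CPM in soma (log2 fold change 4.65, SE 0.39, adjusted p 2.51e-05). Each nerve library stood above each soma library in these genes. Among the 10 higher genes with the smallest adjusted p, leaving out gene models known by a number only, 6 were matrix genes of these lists (Thbs4, Reln, Lama2, Col5a2 with 4.85, Lama4 with 4.53 and Nid2 with 4.34). The others were Adamts20, a secreted protease (6.38), Ccnd1, cyclin D1 (5.28), Mlip (6.25) and Sash1 (6.22). Ties in adjusted p went to the larger change. Thbs4, Reln and Lama2 were markers known beforehand, and the lists were chosen with earlier results known. The count of 6 is thus not independent evidence that matrix genes lead the ranking. Genes that did not pass the test were Pi16 (-1.60), Wif1 (-1.54), Lama3 (-1.42), Itga7 (0.15), Thbs3 (1.96), Eln (0.90), Tnxb (0.27), Fmod (0.23) and Mgp (0.91). The call of Lama1 (4.41) was lost without soma Cre library 6 or 7, and that of Thbs1 (3.18) in each leave-one-out fit but the one without nerve Cre library 1. The calls of Lama1 and Thbs1 were lost in the 4-group fit.

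The mean levels of these RNAs were higher in nerve without the tag than with it, though no gene passed the test of that difference. The collagen list summed to 6927 CPM in nerve Cre libraries (4823 to 9678) and to 17829 CPM in nerve controls (7426 to 26715), so that the ranges overlapped. It summed to 316 CPM in soma Cre libraries (196 to 520.1) and 2968 CPM in soma controls (1174 to 5249.6). The ratio of nerve to ganglion was 21.9 in Cre libraries and 6.01 in controls (5.00 without soma control 5). For the fibroblast list these ratios were 18.1 and 5.56 (4.63), for the basement membrane list 11.9 and 5.19 (4.53) and for the other matrix list 14.2 and 4.38 (3.63). The nerve Cre mean was 0.389 times the nerve control mean for collagens, 0.391 times for fibroblast genes, 0.62 times for basement membrane genes and 0.553 times for other matrix genes. Between nerve Cre libraries and nerve controls 3 of 21 collagens, 1 of 14 fibroblast genes, 2 of 17 basement membrane genes and 3 of 29 other matrix genes had a positive log2 fold change. Over all genes 53.1% were positive, and genes on several of these lists are counted in each. Col1a1 was at 1209, 7691 and 3159 CPM in nerve controls and 215, 883, 603 and 246 CPM in soma controls.

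**Figure D3:**
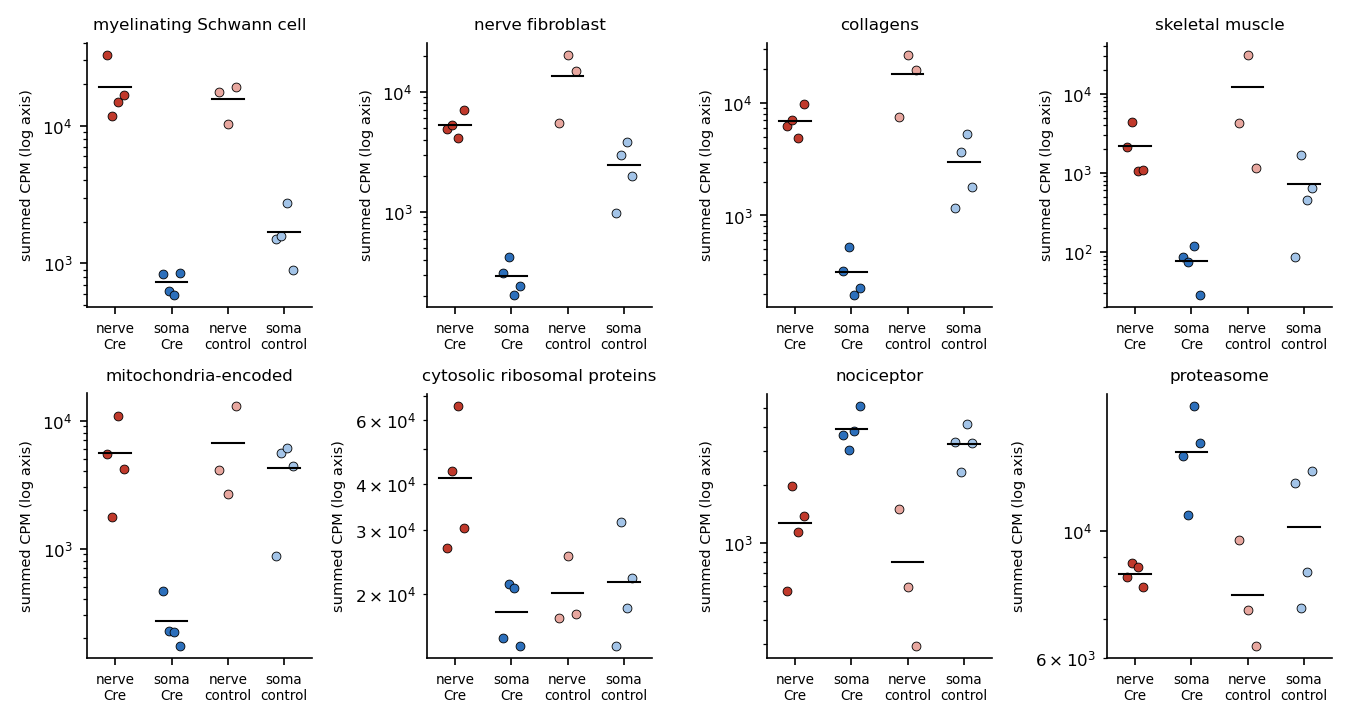
Each panel plots the summed CPM of 1 gene list (log axis) in nerve Cre, soma Cre, nerve control and soma control libraries, 1 point per library with a bar at the group mean. The Schwann cell, fibroblast and collagen sums are high in both nerve groups, the ribosomal protein sum is highest in nerve Cre libraries, and the soma Cre libraries have the lowest mitochondria-encoded sums.

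Vessel, perineurial, immune and muscle genes added further higher genes at lower levels, except for muscle. In the endothelial list 8 of 10 tested genes were higher (median 3.38), among them Cdh5, the cadherin of endothelial junctions (3.25), and Pecam1 (3.33). In the mural cell list 7 of 7 were higher (2.38), such as Cspg4, the pericyte proteoglycan NG2 (4.15), but 4 without soma Cre library 5 and 3 without soma Cre library 8. Of 7 perineurium genes 3 were higher, Cldn1, a tight junction protein (4.58), Itgb4 (2.54) and Tjp1 (2.49), while the list median was 0.08. In the macrophage list 4 of 10 were higher (2.7), including the complement gene C1qa (3.14). That count was 2 without soma Cre library 5, 7 or 8 and 7 without nerve Cre library 1 or 3. Of the lymphocyte and mast cell list 3 genes were tested and 1 was higher, the mast cell protease Cpa3, while Cd3e and Cd3g, which define T cells, had 0 counts in each nerve Cre library, and 2 were higher without nerve Cre library 1 or 3. Of the adipocyte list 2 were tested and 1 was higher, Fabp4 (5.62), which endothelial cells also express, while Adipoq, Plin1 and Cidec had 0 counts in 3 of the 4 nerve Cre libraries. The calls of Tjp1, Itgb4, Cpa3 and Pecam1 were lost in the 4-group fit.

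The summed levels of these lists were low: 179.9 CPM in nerve Cre libraries for endothelial, 277 for mural, 148 for perineurium and 128 for macrophage genes. They were 203, 366, 157 and 271 CPM in nerve controls. Skeletal muscle genes held more counts, and 7 of 8 tested were higher in nerve (median 4.71). Acta1, the actin of skeletal muscle, was at 839, 1084, 359 and 319.5 CPM in nerve and 30.3, 22.0, 45.2 and 10.5 CPM in soma Cre libraries (log2 fold change 4.36, SE 0.57, adjusted p 0.000235). In nerve controls it was at 2207, 10647 and 616 CPM, and in soma controls at 20.9, 604, 8.61 and 64.7 CPM. The muscle list summed to 2159 CPM in nerve Cre libraries (1042 to 4401) and 12279 CPM in nerve controls (1165 to 31371). The nerve controls spread widely and overlapped the nerve Cre libraries. Of 10 muscle genes tested between nerve Cre libraries and nerve controls, 0 had a positive log2 fold change, against 53.1% of all genes. Called in the 4-group fit were 2 endothelial, 1 mural, 1 perineurium, 1 macrophage and 4 muscle genes.

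RNA encoded by the mitochondrial genome was higher in nerve than in soma Cre libraries. All 8 tested protein-coding genes were called (median log2 fold change 4.42), and the other 5 had 0 counts in each of the 15 libraries. mt-Nd1, a subunit of respiratory complex I, was at 2065, 536, 4008 and 1624 CPM in nerve and 173, 63.7, 75.7 and 53.7 CPM in soma (log2 fold change 4.35, SE 0.64, adjusted p 0.000529). mt-Co1, a subunit of cytochrome c oxidase, was at 1492, 252, 919.5 and 531 CPM in nerve and 138, 52.6, 46.4 and 36.0 CPM in soma (log2 fold change 3.36, SE 0.56, adjusted p 0.00123). No nerve library overlapped the soma libraries in these genes. mt-Nd1 was at 1527, 819 and 4085 CPM in nerve controls and at 327, 2092, 2482 and 1518 CPM in soma controls, where soma control 5 was the lowest. In controls the median log2 fold change of the list was 0.39 (7 of 8 positive, against 46.7% of all genes, and none called). Between nerve Cre libraries and nerve controls the median was -0.12. The list summed to 5573 CPM in nerve Cre libraries, 271 in soma Cre libraries, 6631 in nerve controls and 4272 in soma controls (873 in soma control 5). The soma Cre libraries, with 172 to 464 CPM, were thus the group set apart, and the ratio of nerve to ganglion was 20.6 in Cre libraries and 1.55 in controls (1.23 without soma control 5). Mitochondrial mRNAs are read by ribosomes inside mitochondria, which do not hold L10a.

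Part of the genes of the cytosolic ribosome were higher in nerve than in soma Cre libraries. In the controls, nerve against ganglion, 60 of 81 had a negative log2 fold change, against 53.6% of all genes tested in both comparisons. None passed the test there, which only 11 of all 13715 genes did. Ribosomal protein mRNAs as a class are known for a run of pyrimidines at their 5′ end, which places their translation under the control of growth signalling. The first 25 bases of the annotated transcript (GENCODE M21, GRCm38) are shown for the 4 higher genes with the largest mean normalised level over the 8 libraries, to let their starts be compared. Capitals mark a run that begins with C within the first 10 bases and holds at least 5 pyrimidines (C or T).
Rpl41: aggtgctggtgttgaaataatacaa
Rpl37a: CTCTTCggacttgggcttgggttcc
Rplp1: gatCTTTTCCTCagctgccgccaag
Rps3: atttcccatgaacacttgcaagggt
Each is written 5′ to 3′ on the strand of its gene, Rpl41 at chr10:128549281-128549305 (minus strand), Rpl37a at chr1:72711290-72711314 (plus strand), Rplp1 at chr9:61914518-61914542 (minus strand) and Rps3 at chr7:99483714-99483738 (minus strand). In that window Rpl37a and Rplp1 have such a run, and Rpl41 and Rps3 have none. A run was found in 30 of 82 genes of the list (36.6%) and in 13 of the 33 called higher (39.4%). The share was 16.5% of tested genes with an annotated protein-coding transcript (2201 of 13360), 16.4% of genes called higher and 15.5% of genes called lower. The window depends on the annotated start, and no match says only that no run of this kind begins within the first 10 bases. Pyrimidine stretches that begin later, or that hold too few letters from their first C, were not counted. The calls of Rpl41, Rps3, Rpl37a and Rplp1 were lost in the 4-group fit.

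Of the 82 ribosomal protein genes, 33 were higher in nerve and 1 lower, with a median log2 fold change of 0.97. In 42 genes each nerve library was above each soma library, and in 2 each was below. Over all genes 36.7% did not overlap, in either direction. Rpl41 was at 687, 1416, 2447 and 948 CPM in nerve and 306, 577, 454 and 331 CPM in soma Cre libraries (log2 fold change 1.57, SE 0.46, adjusted p 0.0234). Rpl37a was at 471, 1237, 2131 and 779 CPM in nerve and 291, 398, 317 and 233 CPM in soma (log2 fold change 1.76, SE 0.48, adjusted p 0.0162). In both genes the lowest nerve library was above the highest soma library. Rplp1, a protein of the ribosomal stalk, was at 490.3, 1242, 1615 and 905 CPM in nerve and 307, 509, 378 and 269.7 CPM in soma (log2 fold change 1.38, SE 0.42, adjusted p 0.0279), and here the groups overlapped. Rps3 was at 1212, 901, 1288 and 883 CPM in nerve and 478, 548, 621 and 448 CPM in soma (log2 fold change 0.83, SE 0.29, adjusted p 0.0497).

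In nerve controls Rpl41 was at 346, 717 and 269 CPM and in soma controls at 291, 869, 496 and 640.4 CPM, and 1 nerve control reached into the range of the nerve Cre libraries. Rplp1 was at 340.4, 529.7 and 263 CPM in nerve controls and 294, 865, 586 and 534 CPM in soma controls. The list summed to 41566 CPM in nerve Cre libraries (26763 to 65736), above the highest of the nerve controls (17088 to 25348). It summed to 17839 CPM in soma Cre libraries (14332 to 21207) and 21547 CPM in soma controls (14341 to 31423). The ratio of nerve to ganglion was 2.33 in Cre libraries and 0.929 in controls (0.836 without soma control 5). In the control comparison 21 of 81 genes had a positive log2 fold change (median -0.27), against 46.7% of all genes. Of the 33 genes called higher in Cre libraries 23 had a negative one, against 15.9% of all higher genes tested there. Between nerve Cre libraries and nerve controls 80 of 81 were positive (median 1.24, 53.1% of all genes positive), with none called over all genes. At an unadjusted p under 0.05 in edgeR's test 37 were positive and 0 negative. Of genes also tested in the Cre comparison, 277 of 13523 (2.05%) were positive at that p. In the difference between Cre and control libraries 74 of 82 were positive, 28 at an unadjusted p under 0.05, and 0 were negative at that p. Over all genes 1136 of 15717 (7.23%) were positive at that p. The ribosomal protein calls depended on the libraries: the number of higher genes was 20 without nerve Cre library 3, 11 without soma Cre library 5, 19 without soma Cre library 7 and 10 without soma Cre library 8. It was 54 with library size alone, 27 with RLE scaling and 8 in the 4-group fit, and the call of Rps3 was lost without any 1 of the 8 libraries. The calls of Rpl41 and Rplp1 were lost without nerve Cre library 3 or soma Cre library 5, 7 or 8, that of Rplp1 also without nerve Cre library 2, and that of Rpl37a without soma Cre library 5 or 8. Annotated ribosomal protein pseudogenes, which share sequence with these genes, summed to 82.5 CPM in nerve and 28.3 CPM in soma Cre libraries over 300 genes. Translation factors were called about as often as all genes (18.7% higher and 12.5% lower): 7 of 46 were higher and 6 lower (median 0.14), with Eef1b2 (1.02) and Eif5b (1.18) among the higher and Eif5a (-1.70) among the lower. The number of higher translation factors was 11 with library size alone, 3 without soma Cre library 5 or 8 and 4 without soma Cre library 7, and Eef1b2 was not called without soma Cre library 5 or 8. The calls of Eef1b2 and Eif5b were lost in the 4-group fit.

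**Figure D4:**
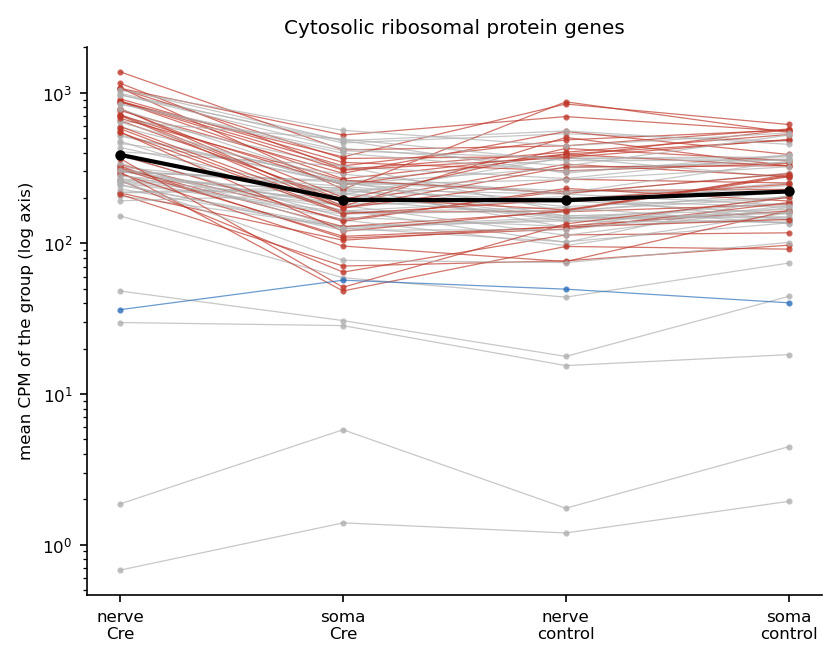
Each line follows 1 of the 82 cytosolic ribosomal protein genes through its mean CPM (log axis) in nerve Cre, soma Cre, nerve control and soma control libraries, red for genes called higher in nerve than in soma Cre libraries, blue for lower and grey for neither, and the black line is the median. The median is highest in the nerve Cre group, and the other groups lie lower and close to each other.

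Guidance cues and receptors were more often called higher than lower in nerve. Of 30 tested semaphorins, netrins, slits and ephrins, 15 were higher in nerve and 1 lower (median 1.72), and of 25 guidance receptors 9 were higher and 1 lower (0.81). Sema3c, a secreted semaphorin, was at 92.7, 25.5, 77.8 and 56.9 CPM in nerve and 6.87, 7.77, 7.69 and 9.38 CPM in soma Cre libraries (log2 fold change 2.77, SE 0.41, adjusted p 0.000516). In controls it did not follow the same order, with 32.1, 11.3 and 29.7 CPM in nerve and 13.2, 92.5, 72.5 and 19.3 CPM in ganglion. Sema3b and Sema6d (2.49) had positive log2 fold changes in controls (3.17 and 2.58, not called). Of the 15 higher cues 6 had a negative log2 fold change in the control comparison: Sema3c (-1.14), Sema3d (-3.95), Sema5a (-0.55), Ntng1 (-0.12), Slit2 (-0.14) and Efnb2 (-0.01). Of all higher genes tested there 15.9% had a negative one. Among receptors, the neuropilin Nrp2 was at 78.8, 80.3, 105 and 135 CPM in nerve and 9.86, 17.9, 8.35 and 13.2 CPM in soma (log2 fold change 2.83, SE 0.34, adjusted p 0.000142), and the plexin Plxnb3 had a log2 fold change of 5.73. The call of Plxna4, the receptor called lower (-1.41), was lost without any 1 of 6 libraries, nerve Cre 3 and 4 and each soma Cre library, and that of Efna3, the cue called lower (-2.19), without soma Cre library 5, 6 or 8. The 4-group fit had 7 cues and 3 receptors higher. The calls of Efna3 and Plxna4 were lost in the 4-group fit.

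Genes of the neuron itself were lower in nerve. Of 13 tested nociceptor genes 8 were lower and none higher (median log2 fold change -1.45), and of 14 general neuronal genes 10 were lower (-1.60). Calca, the gene of the peptide CGRP, was at 230.1, 476, 276 and 289 CPM in nerve and 1111, 888, 1723 and 1908 CPM in soma Cre libraries (log2 fold change -2.34, SE 0.40, adjusted p 0.00128). It was lower in each nerve library than in each soma library. For Scn10a, whose values stand above, the log2 fold change was -1.39 (SE 0.49, edgeR adjusted p 0.0492), and the call was lost with library size alone and without any 1 of 6 libraries, nerve Cre 3 and 4 and each soma Cre library. The sodium channels Scn9a (-1.06) and Scn11a (-1.40) lost their calls in the same fits, so that of 11 sodium channel genes 4 were lower, 0 with library size alone, and 0 to 5 with 1 library left out. The nociceptor count was 5 in each of these 7 fits. It was 2 in the 4-group fit, where 4 general neuronal genes were lower. Trpv1, the capsaicin receptor, was at 0, 14.1, 0.244 and 6.76 CPM in nerve and 24.9, 21.1, 25.6 and 35.9 CPM in soma and did not pass the test (adjusted p 0.0799). The calls of Scn10a, Scn9a and Scn11a were lost in the 4-group fit.

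Without the tag, the nociceptor and general neuronal genes had negative log2 fold changes of nerve over ganglion. None of them passed the adjustment, which only 11 of all 13715 genes did. At an unadjusted p under 0.05 in edgeR's test 3 of 13 and 7 of 14 were lower, against 4.83% of all genes tested in both comparisons. The nociceptor list summed to 1267 CPM in nerve Cre (564 to 1977), 3886 in soma Cre (3011 to 5146), 792 in nerve control (292 to 1494) and 3267 in soma control libraries (2334 to 4110.1). Nerve held 0.326 times the ganglion level with the tag and 0.242 times without the tag (0.244 without soma control 5). In the control comparison 0 of 13 nociceptor genes had a positive log2 fold change (median -2.22), and 0 of 14 general neuronal genes (-2.64), against 46.7% of all genes. Between nerve Cre libraries and nerve controls 11 of 13 nociceptor genes (median 0.79) and 14 of 14 general neuronal genes (0.74) were positive, against 53.1% of all genes. None was called there, nor was any of all 13970 genes. Calca was at 442, 156 and 117 CPM in nerve controls and 948, 449, 1040.4 and 961 CPM in soma controls. Of 12 sensory neuron transcription factors, whose proteins act in the nucleus, 7 were lower, such as Isl2 (-2.42), and 2 higher, Maf (4.22) and Shox2 (2.41); without nerve Cre library 4 the number lower was 4, and in the 4-group fit it was 0. Of genes of large-diameter and low-threshold sensory neurons, part of which the Nav1.8-Cre line is known to label, 10 were tested. Of these 2 were higher (Ntrk2, 1.51, and Ntrk3, 1.34) and 2 lower, against 18.7% and 12.5% of all genes. Neither higher call held without nerve Cre library 4, that of Ntrk2 also not without nerve Cre library 1 or any 1 soma Cre library, and the number lower was 5 without nerve Cre library 2. The calls of Ntrk3, Ntrk2, Isl2 and Shox2 were lost in the 4-group fit.

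Transmitter release and cytoskeleton genes gave the longest lists of lower neuronal genes. Of 28 synaptic vesicle and SNARE genes 16 were lower and none higher (median -1.72). Rab3a, a GTPase of synaptic vesicles, was at 138, 248, 99.3 and 206 CPM in nerve and 832, 709.8, 944 and 1020.2 CPM in soma Cre libraries (log2 fold change -2.55, SE 0.35, adjusted p 0.000308). Vamp2, the vesicle SNARE, was at 137, 333, 228 and 315 CPM in nerve and 893, 862, 764 and 1089 CPM in soma (log2 fold change -2.01, SE 0.34, adjusted p 0.00139). Each nerve library was below each soma library in both genes. Snap25 (-1.79) and Stx1a (-2.58), the SNAREs of the plasma membrane, were also lower. Of 38 motor and cytoskeleton genes 20 were lower and 1 higher (-1.10). Tubb3, neuronal tubulin, was at 265, 1133, 652 and 624 CPM in nerve and 2293, 2236, 2235 and 2716 CPM in soma (log2 fold change -1.99, SE 0.44, adjusted p 0.00609). Actg1, gamma actin, was at 92.2, 66.4, 49.8 and 90.3 CPM in nerve and 578, 267, 479 and 677 CPM in soma (log2 fold change -2.97, SE 0.33, adjusted p 0.000104). The stathmins Stmn2 (-1.55) and Stmn3 (-1.45) and Actb (-1.29), beta actin, were lower, but lost their calls without nerve Cre library 4 and without soma Cre libraries 7 or 8, and Stmn3 and Actb also without soma Cre library 6. Kif1a, the axonal kinesin called higher (0.84), lost its call without any 1 of 6 libraries, nerve Cre 2, 3 and 4 and soma Cre 5, 7 and 8, with RLE scaling and with no filter on low counts. Of 9 neuropeptide genes 3 were lower, Calca, Calcb (-2.52) and Tac1 (-1.45), and 5 without nerve Cre library 1 or 2. Lower in the 4-group fit were 7 SNARE, 12 motor and cytoskeleton and 1 neuropeptide genes. The calls of Tac1, Stmn2, Calcb, Stmn3, Tubb3 and Kif1a were lost in the 4-group fit.

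RNA-binding proteins, which carry and regulate axonal mRNAs, were 10 higher and 6 lower of 42 (18.7% and 12.5% of all genes; median 0.09), and their summed level was 5336 CPM in nerve and 5051 CPM in soma Cre libraries. The neuronal Elavl4 (HuD) was at 88.3, 330.0, 273 and 141 CPM in nerve and 651, 507, 568 and 567 CPM in soma (log2 fold change -1.61, SE 0.42, adjusted p 0.0141). Elavl1 (HuR), which most cells express, was at 217, 83.5, 123 and 156 CPM in nerve and 43.1, 37.0, 33.7 and 28.7 CPM in soma (log2 fold change 1.8, SE 0.28, adjusted p 0.000838). Members of the same family thus lay on opposite sides, without overlap between nerve and soma in either. In nerve controls against soma controls their log2 fold changes were -2.88 and 1.75. Celf2 (2.57), Purb (1.92) and the embryonic mRNA-binding protein Igf2bp1 (5.41) were higher, and Rbfox1 (-2.19) and Stau2 (-1.60) lower. Without nerve Cre library 2 the number lower was 11. Of 23 potassium channels 2 were higher and 2 lower, against 18.7% and 12.5% of all genes. The higher ones were Kcna1 (3.78) and Kcna2 (2.20), both subunits of the channels beside the nodes of myelinated axons. Both had positive log2 fold changes in controls (2.43 and 1.21, not called). The lower potassium channels were Kcnb2 (-1.32) and Kcnc4 (-2.36), whose calls were lost with library size alone and without any 1 soma Cre library. Their count was 4 without nerve Cre library 1, 6 without nerve Cre library 2 and 1 without nerve Cre library 3 or 4. Of the RNA-binding proteins 6 were higher and 2 lower in the 4-group fit. The calls of Kcnb2, Kcnc4 and Elavl4 were lost in the 4-group fit.

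Protein turnover and energy genes were lower in part. Of 33 proteasome genes 17 were lower and none higher (median -0.92). Psmb6, a catalytic subunit, was at 474, 592, 657 and 638 CPM in nerve and 970.0, 1019.9, 1582 and 1218 CPM in soma Cre libraries (log2 fold change -1.22, SE 0.32, adjusted p 0.0131). Psmc5, a subunit of the ATPase ring, was at 247, 472, 316 and 462 CPM in nerve and 735, 597, 821 and 786 CPM in soma (log2 fold change -1.17, SE 0.31, adjusted p 0.0150). Nerve and soma did not overlap in either gene. The proteasome list summed to 8414 CPM in nerve Cre, 13740.0 in soma Cre, 7727 in nerve control and 10170.0 in soma control libraries. In it 7 genes were called without soma Cre library 7, 9 without soma Cre library 8 and 8 in the 4-group fit. Lower calls over all genes in these fits were, in that order, 1232 of 16145, 1163 of 16097 and 454 of 15717, against 1929 of 15467 as reported. Of 76 nuclear-encoded respiratory chain genes 15 were lower and none higher (median -0.35), where 12.5% of all genes were lower. Without soma Cre library 7 the number lower was 9, in a fit where 1232 of all 16145 genes were lower. Without nerve Cre library 1, 4 were higher. Atp5b, the beta subunit of ATP synthase, was at 825, 678, 649 and 602 CPM in nerve and 1739, 831, 1520.5 and 1623 CPM in soma (log2 fold change -1.26, SE 0.31, adjusted p 0.0107). Its level was 1212, 1292 and 1054 CPM in nerve controls and 1838, 1397, 1604 and 1946 CPM in soma controls. The sums of the respiratory chain list overlapped between nerve Cre (22440.5 to 57053 CPM) and soma Cre libraries (33982 to 44737 CPM).

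The lower genes with the smallest adjusted p included 2 enzymes of glycolysis. Aldoc (aldolase C; ENSMUSG00000017390, chromosome 11, 78322968 to 78327781) was at 55.7, 62.6, 57.6 and 55.7 CPM in nerve and 300.2, 208, 335 and 380.3 CPM in soma Cre libraries (log2 fold change -2.60, SE 0.28, adjusted p 7.86e-05). Gapdh (ENSMUSG00000057666, chromosome 6, 125161715 to 125166467) was at 206, 254, 163 and 154 CPM in nerve and 1052, 900.5, 1342 and 1462 CPM in soma (log2 fold change -2.82, SE 0.33, adjusted p 0.000119). The nerve values of Aldoc lay close together and far below soma. In controls the order was less clear, Gapdh being at 522, 473 and 165 CPM in nerve and 920.1, 246, 407 and 819 CPM in ganglion. The other 8 by the same rule were Snrpn (-2.73), an imprinted gene of a splicing factor that shares 27.3% of its exon length with a gene on its strand, Actg1, Fam241b (-2.52), Samd10 (-2.73), Nt5m (-2.17), a mitochondrial nucleotidase, Fam57b (-2.65), Klhdc8a (-2.30) and the synapsin Syn2 (-2.29).  The calls of Aldoc, Fam241b, Samd10 and Klhdc8a were lost in the 4-group fit.

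How far the higher genes were also higher in nerve without the tag was read from the 7 control libraries, which share no library with the Cre comparison. Of the 2889 higher genes 2712 could be tested there, and 2282 of them (84.1%) had a positive log2 fold change of nerve over ganglion, against 46.4% of all genes tested in both. A log2 fold change of at least 1 was found in 1441 (53.1%, all genes 19.9%) and a positive one with an unadjusted p under 0.05 in 565 (20.8%, all genes 4.87%). The median was 1.10 in controls for the higher genes and -0.12 for all genes. In controls 11 of 13715 genes (0.0802%) passed the adjustment, 9 higher (0.0656%) and 2 lower (0.0146%) in nerve. An unadjusted p under 0.05 was found for 1341 genes (9.78%), and DESeq2 called 607. All 9 were among the genes higher in Cre libraries. No gene was called in controls without nerve control 2 or any 1 soma control, 43 were without nerve control 1 and 18 without nerve control 4. With soma control 5 left out, 2140 of 2679 higher genes (79.9%) were positive, and with each control library left out in turn the positive share ran from 77.7% to 87.1%. Of the lower genes 1496 of 1724 (86.8%) were negative in controls, against 53.6% of all genes. Across 13458 genes the log2 fold changes of Cre and control comparisons had a Pearson r of 0.533 and a Spearman rho of 0.562, a description across genes, which are not independent.

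**Figure D5:**
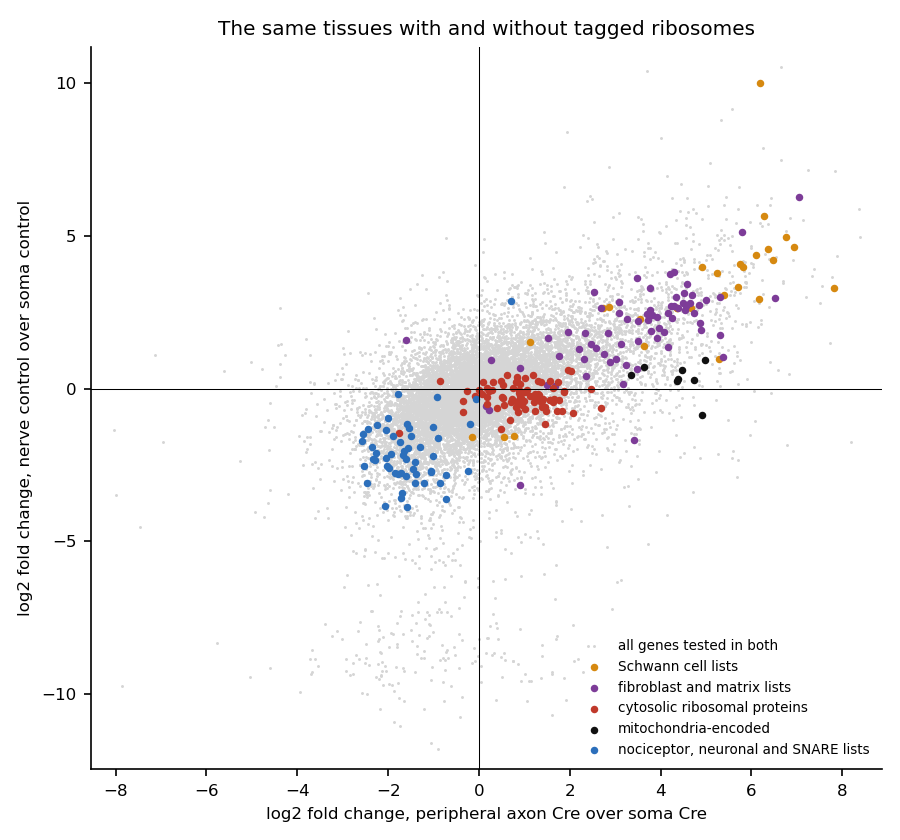
Each point is a gene, with its log2 fold change of nerve over ganglion in Cre libraries (horizontal axis) and in control libraries (vertical axis). Schwann cell, fibroblast and matrix genes lie mostly to the upper right, nociceptor, neuronal and SNARE genes mostly to the lower left, and ribosomal protein and mitochondria-encoded genes to the right near 0 on the vertical axis.

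In counts, the higher genes held 29.3% of the nerve Cre libraries (22.6% to 36.9%) and 34.0% of the nerve controls (24.5% to 40.4%). They held 5.53% of the soma Cre libraries (4.94% to 6.08%) and 13.2% of the soma controls (7.11% to 17.4%). The lower genes held 17.3% of nerve Cre, 43.0% of soma Cre, 16.8% of nerve control and 31.2% of soma control counts. In CPM a larger share of the higher genes leaves a smaller share for all others. How far this bears on the lower calls was not tested. The mean surplus of nerve over soma Cre libraries, summed over the 2889 higher genes, was 238234 CPM. The 2 Schwann cell lists held 7.98% of it in 24 genes, the fibroblast and matrix lists 6.72% in 65 genes and the ribosomal protein list 6.14% in 33 genes. Mitochondria-encoded protein genes held 2.23%, the muscle list 0.866%, the vessel and perineurium lists 0.178% and the blood, immune and adipocyte lists 0.177%. The remaining 75.7% lay in 2725 genes on none of these lists, so the lists name only a small part of the surplus and its cell source was not tested gene by gene.

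Among those unlisted genes, named here after their values were seen, the nuclear long non-coding RNA Malat1 had the largest surplus, 4.94% of the total. Malat1 was at 12369.5 CPM on average in nerve Cre (7213 to 16284), 601 in soma Cre (181 to 828), 8669 in nerve control and 3139 in soma control libraries (log2 fold change 4.17, edgeR adjusted p 0.000332). Gm37376 came next with 2.42%, but it is annotated wholly on the strand opposite to Malat1, so reads of the pair cannot be told apart without strand. The mitochondrial ribosomal RNAs mt-Rnr1 and mt-Rnr2 held 1.60% and 1.14%. Qk, an RNA-binding protein of myelinating glia, was at 1102 CPM in nerve Cre, 15.8 in soma Cre and 1312 in nerve control libraries on average. Vim, the intermediate filament of glia and fibroblasts, was at 1209.9, 212 and 2221 CPM, and Cryab, a small heat shock protein, at 834, 18.1 and 889.8 CPM in the same groups. In mean CPM these 3 genes were thus at least as high in nerve controls as in nerve Cre libraries, which compares shares and not amounts. Rack1, a protein of the small ribosomal subunit, was at 1059.7, 348 and 601 CPM. Higher genes were longer than others, with a median exon length of 5386 bases, against 3176 bases for lower and 4156 bases for all tested genes, and the part of length in these results was not tested.

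A last comparison asked which genes differed more between nerve and ganglion with the tag than without it. The nerve Cre libraries themselves differed from nerve controls in 0 of 13970 genes by edgeR's adjusted p, with 514 genes (3.68%) at an unadjusted p under 0.05 and 27 called by DESeq2. The difference of the nerve over ganglion ratios between Cre and control libraries was called in 1 of 15717 genes (0.00636%), and 1531 genes (9.74%) had an unadjusted p under 0.05, 1136 of them (7.23%) positive, while DESeq2 called 352. The number of genes called was 66 without nerve control 1, 25 without soma control 5 and 2 without nerve control 2.

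Of the 430 higher genes with a negative log2 fold change in controls, 23 were ribosomal protein genes, 6 guidance cues and 4 erythroid genes. The haemoglobin gene Hbb-bs was at 193, 131, 187 and 156 CPM in nerve and 49.1, 71.6, 10.7 and 22.3 CPM in soma Cre libraries (log2 fold change 1.95, SE 0.47, adjusted p 0.00877). In nerve controls it was at 48.0, 171 and 98.8 CPM and in soma controls at 37.7, 817, 535 and 240.5 CPM, so that its mean was higher in ganglion than in nerve there. The erythroid list summed to 298 to 409 CPM in nerve Cre, 25.4 to 145 in soma Cre, 118 to 385 in nerve control and 85.1 to 1802 in soma control libraries, and in the 4-group fit none of its genes was called. By the difference between Cre and control libraries, the higher genes with the smallest unadjusted p included, beside Lgi4 and Fxyd3, the mitochondrial genes mt-Tq (0.000100), mt-Rnr2 (0.000102) and mt-Tc (0.000178) and the nuclear genes Zbtb26 (0.000110), Nmt2 (0.000118), Nr2f1 (0.000217) and Samd5 (0.000309). None of these passed the adjustment. Nmt2, which attaches myristate to proteins, was at 73.4, 78.1, 162 and 71.1 CPM in nerve Cre, 32.0, 31.9, 25.2 and 20.4 in soma Cre, 32.3, 33.6 and 53.2 in nerve control and 45.4, 276, 118 and 217 in soma control libraries. Among higher genes with the largest ratio of nerve Cre to nerve control level, 10 had 0 counts in each nerve control, and their folds are lower bounds against the mean of 3 counts per control library. Cpa3 was at 16.8, 5.05, 7.32 and 9.02 CPM in nerve Cre libraries, at least 16.7-fold above that floor, and Spdl1, a spindle protein, at 13.9, 5.18, 8.05 and 11.8 CPM, at least 17.0-fold above it. The others were Odf2l (at least 33.4-fold), Bbs12 (at least 24.4-fold), Cd96 (at least 19.1-fold), Tdrd6 (at least 15.3-fold), Smagp (at least 12.2-fold), H2-Aa (at least 11.1-fold), Gm9403 (at least 10.8-fold) and Zfp595 (at least 10.8-fold). These genes were picked by this ratio, and the bounds cover counting error only, not RNA lost before sequencing. Nerve control 4 had 9606 genes with at least 10 counts, against 13787 and 13378 in nerve controls 1 and 2. The calls of Odf2l, Bbs12, Cd96 and Tdrd6 as higher were lost without any 1 soma Cre library, those of Odf2l, Cd96 and Tdrd6 also without nerve Cre library 4, those of Cd96 and Bbs12 without nerve Cre library 3, and those of Cd96 and Tdrd6 without nerve Cre library 1.
 The calls of Hbb-bs, Zbtb26, Nmt2, Odf2l, Bbs12, Cd96, Spdl1, Tdrd6, Smagp, H2-Aa, Gm9403 and Zfp595 were lost in the 4-group fit.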

How the data were processed

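The authors deposited a table of read counts per gene for the batch 2 libraries, and the unit of each value used is a raw count per GENCODE gene. Per the submitters' processing notes, STAR 2.7.2b and the mm10 genome were used; the counting program, its use of strand and its treatment of reads that map to several places are not given in the sources used here. Gene coordinates, biotypes and transcript starts came from GENCODE M21 (GRCm38), and no column of per-sample values was left unmapped. Groups came from the labels. The total count per library, 3.60 to 19.6 M, limits the precision. At a dispersion of 0.35, simulated for both comparisons alike, 83.5% of 200 genes changed by 3 on the log2 scale were recovered among 16560 genes in the Cre comparison, with 8 unchanged genes called. For the control comparison it was 71.5% among 14669 genes, with 2. Spearman rho between replicates was 0.565 to 0.841 in the control groups and 0.706 to 0.986 in the Cre groups. Recovery at the spread of the control libraries was not simulated, so 71.5% does not describe the control test on the data. Limits for counts of 0 cover counting error only.

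Genes were kept by filterByExpr (minimum count 10, minimum total 15), scaled by TMM and tested with edgeR 4.0.16 in R 4.3.3 (quasi-likelihood test, two-sided, Benjamini-Hochberg adjustment over all genes tested, threshold 0.05). Nerve against soma was fitted on the 8 Cre libraries, nerve against ganglion on the 7 controls, nerve Cre against nerve control on 7 libraries, and the difference between Cre and control on all 15. The comparisons with nerve controls share the 4 nerve Cre libraries with the nerve against soma comparison. Each standard error was taken as log2 fold change over root F. Alternatives were other scalings, filters, depth thinning, limma 3.58.1 (voom), DESeq2 1.42.0, glmTreat and leaving out each library. Named genes were the 10 with the smallest adjusted p in each direction (ties by larger change; mean normalised CPM of at least 5; no overlap between groups; no number-only gene models), up to 4 called members of each list in its more frequent direction and 2 in the other by mean level, the defining markers of each list, and the 10 higher genes each with the smallest interaction p and the largest ratio to nerve controls. Egr2, Prx, Dhh, Igf2bp1, Stau2, Plxnb3 and the genes named by their share of surplus counts were picked outside that rule after their values were seen. Some genes that this rule would name are not reported here. The comparison, its members and all gene lists were chosen with earlier results of these data known, so no list count is independent evidence of a direction, and lists were given no test.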

Additional observations from a re-analysis of the deposited data

Results flagged for a closer look

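In groups of 4 libraries, 129 sets of values (library totals, list sums, and the levels of Scn10a, Rpl10a and the 4 marker genes) were screened for a single library far from the other 3 by Dixon's criterion, which chance meets in about 1 in 20 sets, and 8 met it. Nerve Cre library 2 had a total of 15.1 M counts, far above the other nerve Cre libraries, and its erythroid sum of 298 CPM lay below theirs. Soma control 5 had a total of 18.1 M counts, far above the other soma controls, and an adipocyte sum of 6.08 CPM, below theirs. Soma Cre library 7 had a guidance receptor sum of 327 CPM, below the other soma Cre libraries, and a respiratory chain sum of 44737 CPM, above them. Soma control 8 had a general neuronal sum of 36704 CPM, above the other soma controls. Scn10a was at 598 CPM in soma control 7, above the other soma controls.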

How the results depend on the processing

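The number of genes called between nerve and soma Cre libraries, 4818, was 3220 to 6055 with 1 library left out, 4339 after thinning all libraries to the smallest total, 4778 with library size alone, 5031 with RLE scaling, 6021 with voom and 6132 with DESeq2. It was 1404 in the 4-group fit, where 1381 of the genes were also called as reported, and 2033 when a log2 fold change beyond 1 was tested. The share of calls that were higher was 60.0% as reported, 69.3% with library size alone, 53.0% with RLE scaling, 51.8% with DESeq2, 47.1% with voom, 49.2% without nerve Cre library 2 and 79.6% for changes beyond 1. For controls, nerve against ganglion, the 11 calls became 268 with no filter on low counts, 607 with DESeq2 and 0 to 43 with 1 library left out. Nerve Cre against nerve control had 0 calls in each edgeR fit and 27 with DESeq2. The difference between Cre and control libraries had 1 call as reported, 23 with no filter, 352 with DESeq2 and 1 to 66 with 1 library left out. The causes were not tested. No called gene turned its direction in any alternative run for the named genes. Medians near 0 changed sign: that of the perineurium list became -0.37 with voom, that of early response genes -0.10 with voom, that of translation factors -0.06 without nerve Cre library 2 and that of RNA-binding proteins -0.06 with no filter. For controls, nerve against ganglion, the share of calls that were higher was 81.8% as reported, 48.9% with DESeq2 and 44.2% without nerve control 1.

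No paired analysis was possible for nerve against soma because their replicate numbers, 1 to 4 and 5 to 8, are not shared. Cre and control libraries of a tissue do share numbers, and the correlation of same-numbered deviations from the group means was -0.106 to 0.0813 over 3 pairs in nerve and -0.00538 to 0.212 over 4 pairs in ganglion, so the numbers were not taken to pair libraries. With the replicate number as a block, nerve Cre against nerve control had 0 calls and the difference between Cre and control libraries 0 calls.

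Nerve libraries were mostly shallower than soma Cre libraries, and inputs were very small. Reads of overlapping genes on opposite strands, and of ribosomal protein genes and their pseudogenes, may be shared. Of the list counts 192 moved by over 1.5 times in some alternative and 1032 did not, and of the named gene values 446 lost their call, 29 gained one, 13 moved and 3301 kept their side of the threshold.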

Other observations

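Early response genes, which neurons and glia switch on within minutes of a stimulus, were called about as often as all genes: of 22 tested, 5 were higher and 2 lower between nerve and soma Cre libraries (18.7% and 12.5% of all genes), with a median log2 fold change of 0.28. Nr4a1, a nuclear receptor of this class, was at 65.4, 52.0, 29.5 and 56.9 CPM in nerve Cre and 4.74, 3.79, 1.02 and 1.66 CPM in soma Cre libraries (log2 fold change 4.00, SE 0.51, adjusted p 0.000200), and at 41.1, 200.1 and 119 CPM in nerve controls and 14.3, 12.3, 24.2 and 23.3 CPM in soma controls. Nerve was above soma in each Cre library of this gene. Egr3 (6.38), Egr1 (2.40), Fosl2 (2.38) and Klf4 (2.41) were the other higher ones, and Junb (-1.28) and Ier3 (-1.79) the lower ones. The call of Klf4 was lost without nerve Cre library 4 or any 1 soma Cre library. The number lower was 1 without nerve Cre library 2 or soma Cre library 7 or 8, and in the 4-group fit 2 genes were higher and 0 lower.

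Cholesterol synthesis and uptake genes were 6 higher and 3 lower of 22 tested (18.7% and 12.5% of all genes). Among the higher ones were the enzymes Cyp51 (1.61), Msmo1 (1.51) and Lss (0.70) and Insig1 (1.78), which restrains sterol synthesis. The lower ones were Mvk (-0.96), Pmvk (-1.09) and Fdft1 (-1.21). Cyp51 was at 224, 117, 146 and 173 CPM in nerve Cre and 45.6, 41.2, 35.7 and 63.3 CPM in soma Cre libraries (log2 fold change 1.61, SE 0.26, adjusted p 0.00107). In controls, nerve over ganglion, its log2 fold change was -0.11. The number lower was 5 without nerve Cre library 1, 1 without soma Cre library 8 and 1 with library size alone, and in the 4-group fit 1 gene was higher and 0 lower.

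Of 12 voltage-gated calcium channel genes 1 was higher in nerve, Cacna1d (1.8), and 3 lower, Cacnb3 (-1.90), Cacnb1 (-1.31) and Cacna1e (-3.18). Over all genes 18.7% were higher and 12.5% lower. The call of Cacna1d was lost with RLE scaling, in the 4-group fit and without any 1 library other than nerve Cre library 3, and the number lower was 1 to 5 with 1 library left out.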
